A study of Mus musculus with 16 samples.

Results

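A set of 10 genes of the Hippo pathway's transcriptional arm was followed through RNA sequencing of cultured mouse cells labelled as juxtaglomerular (JG) cells, the type that releases renin from the wall of the kidney arteriole. The gene of renin had no counts in any library. The 10 genes were taken by symbol from a count table of 46078 genes, and all 10 passed the filter on low values that left 14897 genes for testing. The genes are Yap1 and Wwtr1 (which encodes TAZ), the 4 genes Tead1, Tead2, Tead3 and Tead4, the kinase gene Lats2, and the target genes Ctgf, Cyr61 and Amotl2. The cells of all 4 groups were engineered to carry YFP under the renin promoter. They received miR-106b or a non-mammalian miRNA precursor as control by transfection and were harvested at 48 h, either for polyadenylated (polyA) RNA or for RNA immunoprecipitated with Ago2 (Ago2-IP), the protein that holds miRNAs and their bound mRNAs in the RNA-induced silencing complex. Each of the 4 combinations has 4 libraries from replicate cultures, and the Ago2-IP cultures are not those of the polyA RNA. The p-values measure the spread between these cultures of 1 cell source.

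YAP and TAZ are coactivators that do not bind DNA themselves. When they enter the nucleus they sit on TEAD proteins, which recognise DNA and switch on genes for growth, matrix and cytoskeleton. The kinases LATS1 and LATS2 phosphorylate YAP and TAZ and hold them in the cytoplasm, and cells spread on a stiff surface keep the pair nuclear. The secreted matrix proteins CTGF and CYR61 are common readouts of this activity, and LATS2 and the motin AMOTL2 are both targets and inhibitors, which closes a feedback loop.

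Sequencing yielded between 2579086 and 9459585 counts per library. Levels are given as CPM, counts scaled to library size and by TMM within each RNA kind. The labelled cell type was checked against marker genes. Ren1, the renin gene, had 0 counts in all 16 libraries, and Akr1b7, another JG cell marker, had 6 counts in all. Of the 10 genes of the JG and mural list these 2 were the lowest. Acta2 (757 CPM), Tagln (498), Pdgfrb (118), Foxd1 (52.7) and Rgs5 (38.5) were the highest in polyA control RNA. Myh11 (15.6), Gja5 (2.20) and Cnn1 (1.28) lay below them, and the list summed to between 1380 and 1587 CPM there. Ren1 and Akr1b7 thus go against the label, and the name JG is used here as the label gives it. Cardiac muscle genes were high: a list of 25 summed to between 25020 and 35176 CPM in polyA control, 48164 and 82684 in polyA miR-106b, 111320 and 119284 in Ago2-IP control and 107791 and 118207 in Ago2-IP miR-106b libraries. In polyA RNA 23 of the 24 cardiac genes tested, 10 of 10 endothelial genes and 8 of 8 fibroblast genes rose with miR-106b, and none fell. Of 8 tested genes of the JG and mural list, 4 rose and 1 fell. Over all genes tested 40.5% passed, 19% higher and 21.5% lower. The polyA miR-106b replicate 1 library stood apart from the other 3 of its group, with the lowest cardiac sum among them (48164 CPM) and the highest Col1a1 level (15096 CPM, against 8303 to 11106). Where leaving it out moved a reported difference of the 10 genes by more than 1.5 times or changed a call, both values are given. In bulk RNA, fewer cells of a type and less RNA per cell cannot be told apart, and this holds for every value that follows.

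The sequence bears on which of these mRNAs carry a match to the transfected miRNA. Mature miR-106b-5p (RefSeq, GRCm38.p6, chr5:138165787-138165807, minus strand, 21 bases) is shown first with its seed, bases 2 to 8, in capitals, followed by the 3 matches to it found in the longest 3′UTRs of the 10 genes (GENCODE M21, GRCm38), with the matching bases in capitals.
miR-106b-5p: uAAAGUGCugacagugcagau
Yap1: cctttcaccatCACTTTAactgaacacac
Wwtr1: agggtcagggtGCACTTTActgggaagggc
Tead1: aagcctcagtgGCACTTTAcacatatattc
The Yap1 match is a 7mer-A1 site (CACTTTA, seed bases 2 to 7 followed by an A) at chr9:7934170-7934176 on the minus strand, 321 bases into a 3′UTR of 2498 bases. Wwtr1 and Tead1 each hold an 8mer (GCACTTTA, all of the seed followed by an A), at chr3:57457188-57457195 on the minus strand and at chr7:112899969-112899976 on the plus strand. No such match, and no 7mer-m8 (GCACTTT), was found in the annotated 3′UTRs of Tead2, Tead3, Tead4, Lats2, Ctgf, Cyr61 or Amotl2. Thus 3 of 10 genes held a match, against 22.2% of the 13222 tested genes with an annotated 3′UTR. The share was 2 of 10 against 14.8% when 7mer-A1 sites were left out. A match of letters is a description and does not show that the miRNA binds there.

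Promoters were read for the TEAD element GGAATG or its reverse complement CATTCC, since members of the group are both regulators and targets. The windows run from 250 bases before to 50 bases after each RefSeq start site (GRCm38.p6). An entry was found for 7 of the 10 genes (Ctgf, Tead1 and Tead4 had none), and 6 of these 7 held the element in at least 1 window, against 16.6% of 27025 genes and 14.7% of 32851 promoter windows. For the kinase gene (1 of its windows) and the target genes with an entry, the 30 bases around the element, 5′ to 3′ on the gene's strand and with the element in capitals, are as follows.
Cyr61: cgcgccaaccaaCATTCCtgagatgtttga
Amotl2: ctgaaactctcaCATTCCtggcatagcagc
Lats2: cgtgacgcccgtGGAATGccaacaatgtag
The Cyr61 stretch lies at chr3:145650071-145650100 on the minus strand, the Amotl2 stretch at chr9:102717727-102717756 on the plus strand and the Lats2 stretch at chr14:57746102-57746131 on the minus strand. Yap1, Wwtr1 and Tead3 held the element as well, and the Tead2 window did not. Binding at these letters was not measured.

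The first comparison asks how the steady-state mRNA of the pathway differed between miR-106b and control transfection. In polyA RNA, 4 of the 10 genes passed an adjusted p of 0.05 in edgeR's quasi-likelihood test. Tead3 and Lats2 were higher with miR-106b, and Tead4 and Ctgf were lower. Their share is close to the background, since 40.5% of all genes tested passed in this comparison (19% higher and 21.5% lower). The median log2 difference of the 10 was −0.18, and that of all genes −0.05. The numbers for all genes were 2836 higher and 3198 lower, and 3828 higher and 2410 lower with all 16 libraries scaled and fitted together, which moved the median gene to 0.07. No direction among the 10 changed under the scalings tried.

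**Figure D1:**
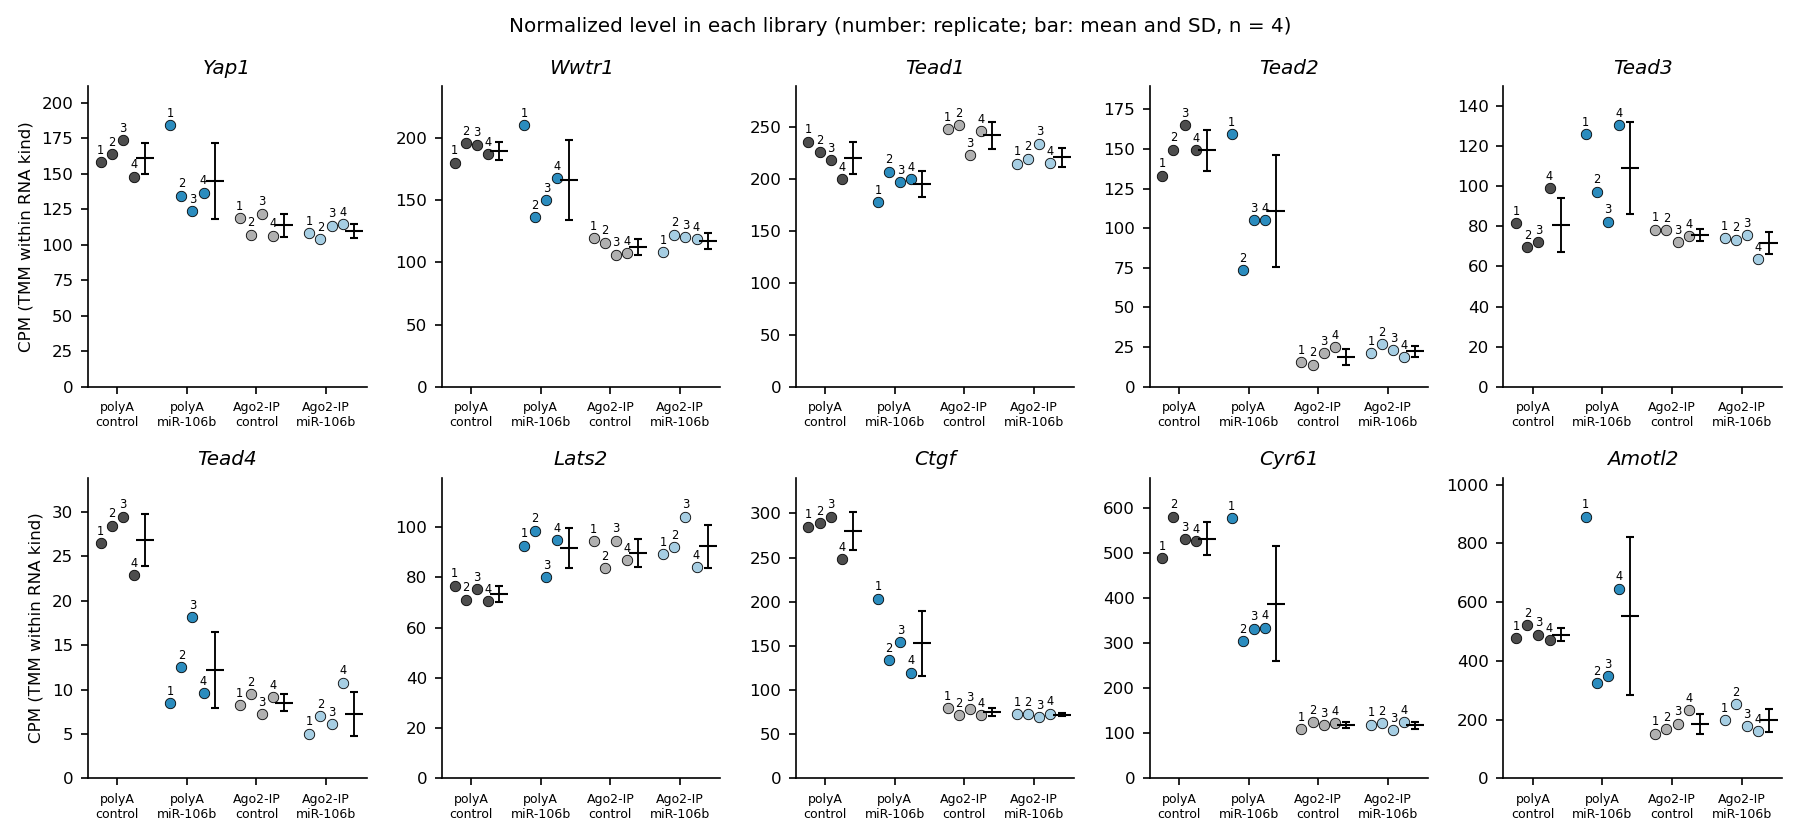
Normalized level (y axis, CPM from 0) of each of the 10 genes in the 16 libraries, 1 panel per gene, with the 4 groups on the x axis, the replicate number above each point and the mean ± SD (n = 4) as a bar. In polyA RNA the miR-106b libraries lie below all controls for Ctgf and Tead4 and above them for Lats2, and polyA miR-106b replicate 1 lies above all control libraries for Yap1, Wwtr1, Tead3, Lats2 and Amotl2 and within their range for Cyr61 and Tead2.

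Among the coactivators, Yap1 (ENSMUSG00000053110, chr9:7931999-8004596) was at 158, 164, 174 and 148 CPM in the polyA control libraries, in the order of replicates 1 to 4. With miR-106b it was at 184, 135, 124 and 137 CPM. The groups overlapped because replicate 1 lay above every control library, while the other 3 lay below every one. The log2 difference was −0.15 (SE 0.130, adjusted p = 0.379, edgeR's test), and −0.21 without that library (adjusted p = 0.0929). With each of the 8 libraries left out it lay between −0.21 and −0.077, the smallest being without control replicate 1. Wwtr1 (ENSMUSG00000027803, chr3:57455649-57575910), the gene of the paralogous coactivator TAZ, was at 180.1, 196, 195 and 187 CPM in control and at 210.3, 136, 150.1 and 168 CPM with miR-106b. Here too replicate 1 was the highest of all 8 libraries and the other 3 were below every control. Wwtr1 differed by −0.19 (SE 0.131, adjusted p = 0.274), and by −0.25 without replicate 1, which then passed the test (adjusted p = 0.0474). Without miR-106b replicate 2 it was −0.10 (adjusted p = 0.570). Thus the 2 coactivator mRNAs with a seed match did not pass the test over all 8 libraries.

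The TEAD genes went different ways. Tead4 (ENSMUSG00000030353, chr6:128224288-128300823), the family member best known from the trophectoderm, was at 26.5, 28.5, 29.5 and 22.9 CPM in control and at 8.49, 12.5, 18.2 and 9.63 CPM with miR-106b. Every miR-106b library lay below every control library. The log2 difference of −1.14 (SE 0.209, adjusted p = 0.00126) corresponds to 0.455 of the control level, and it stayed between −1.40 and −0.89 with each library left out in turn. Tead4 had few reads, between 26 and 66 counts in the miR-106b libraries, so that its single values carry more counting error than the others. It was 1 of 3 genes of the 10 whose groups did not overlap, the others being Ctgf and Lats2. Over all genes this was so for 38.3%, of which 16.7% were higher and 21.6% lower with miR-106b as a share of all genes tested.

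Tead3 (ENSMUSG00000002249, chr17:28331671-28350805) was at 81.4, 69.4, 72.0 and 99.0 CPM in control and at 126, 97.2, 82.3 and 130.3 CPM with miR-106b. Replicates 1 and 4 of the miR-106b group were above every control, and replicates 2 and 3 fell within the control range. The rise of Tead3 was 0.44 in log2 (SE 0.161, adjusted p = 0.0445). The call was lost without polyA control replicate 2 (adjusted p = 0.138) or replicate 3 (0.128), and without miR-106b replicate 4 (0.131).

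Tead2 (ENSMUSG00000030796, chr7:45215753-45233635), a member prominent in embryonic and neural tissue, was at 133, 149, 165 and 149 CPM in control and at 159, 73.7, 105 and 105 CPM with miR-106b. Only replicate 1 of the miR-106b group overlapped the control range. The log2 difference was −0.43 (SE 0.184, adjusted p = 0.0816) with that library and −0.58 (SE 0.126, adjusted p = 0.00246) without it, and it was −0.27 (adjusted p = 0.201) without replicate 2 instead. Tead1 (ENSMUSG00000055320, chr7:112679318-112906807), the form abundant in muscle and the one with an 8mer, was at 236, 225, 218 and 199 CPM in control and at 177, 207, 196 and 199 CPM with miR-106b. These ranges overlapped, and the difference of −0.17 (SE 0.103, adjusted p = 0.201) did not pass the test. Without miR-106b replicate 1 the difference of Tead1 was −0.048 (adjusted p = 0.711).

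Lats2 (ENSMUSG00000021959, chr14:57642077-57758388), the inhibitory kinase, was at 76.7, 71.1, 75.3 and 70.5 CPM in control and at 92.5, 98.5, 80.1 and 94.8 CPM with miR-106b. All 4 miR-106b libraries were above all 4 control libraries. Lats2 rose by 0.32 (SE 0.104, adjusted p = 0.0266), to 1.25 times the control level, but the call was lost in 5 of 8 fits without 1 library, at adjusted p-values up to 0.0861 (without control replicate 2). The others were the fits without control replicates 3 and 4 and without miR-106b replicates 2 and 4. The gene's locus in the count table starts at 57642077, further downstream than the GENCODE M21 gene at 57689662 to 57758388, so that reads outside the M21 gene may be included.

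Of the target genes, only Ctgf passed the test in polyA RNA. Ctgf (ENSMUSG00000019997, named Ccn2 in GENCODE, chr10:24595442-24598683) was at 285, 289, 296 and 249 CPM in control and at 203, 134, 154 and 119.6 CPM with miR-106b. The lowest control library was above the highest miR-106b library, which was replicate 1. Ctgf differed by −0.87 in log2 (SE 0.151, adjusted p = 0.000987), to 0.547 of control, and the value stayed between −0.96 and −0.77 with each library left out. It had the lowest adjusted p of the 10 genes in this comparison.

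Cyr61 (ENSMUSG00000028195, named Ccn1 in GENCODE, chr3:145646976-145649981), the closest relative of Ctgf in the group, was at 489, 580.2, 531 and 527 CPM in control and at 577, 305, 332 and 334 CPM with miR-106b. Replicate 1 of the miR-106b group was just below the highest control library, and the other 3 lay below all controls. With all 8 libraries the difference was −0.46 (SE 0.182, adjusted p = 0.0613), and without replicate 1 it was −0.64 (SE 0.101, adjusted p = 0.000308). Amotl2 (ENSMUSG00000032531, chr9:102716672-102733418) was at 478, 520.4, 489 and 471 CPM in control and at 891, 323, 348 and 646 CPM with miR-106b. Its miR-106b libraries lay on both sides of the controls, replicates 1 and 4 above and replicates 2 and 3 below all of them. The difference of 0.17 (SE 0.281, adjusted p = 0.658) did not pass the test, and its sign turned without replicate 1 (−0.09, adjusted p = 0.708).

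Without polyA miR-106b replicate 1, 7 of the 10 genes passed the test, Tead3 and Lats2 higher and Wwtr1, Tead2, Tead4, Ctgf and Cyr61 lower, while 6702 of all 14853 genes tested did. Without polyA control replicate 2 or 3, or without miR-106b replicate 4, Tead4 and Ctgf remained. Between the polyA groups, miR-106b had the higher cardiac sum and the lower Ctgf and Tead4. Within the miR-106b group, replicate 1 had the lowest cardiac sum, the highest Ctgf, Cyr61, Amotl2, Tead2, Yap1 and Wwtr1 and the lowest Tead1 and Tead4. For Tead4 this order is the reverse of that between the groups. The part of the cardiac, endothelial and fibroblast transcripts in the differences of the 10 genes was not tested.

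The second comparison asks whether miR-106b drew any of these mRNAs to Ago2. The adjusted threshold in edgeR's quasi-likelihood test was passed by 0 of the 10 genes in the Ago2-IP, and by 0% of the 14897 genes tested. At an unadjusted p under 0.05 there were 827 genes (5.55%). DESeq2's Wald test called 2 genes and edgeR's likelihood ratio test 18, none of them among the 10. Non-overlapping groups were found for 0 of the 10 genes and for 3.26% of all. Of the 10 genes, Tead1 alone had an unadjusted p under 0.05. It was at 248, 251, 222 and 246 CPM in control and at 214, 219, 234 and 215 CPM with miR-106b, which is a log2 difference of −0.13 (SE 0.0523) with an adjusted p of 0.762 by edgeR. Its groups overlapped, and its level was lower with miR-106b.

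The other 2 genes with a seed match also lay close to control in the Ago2-IP. Yap1 was at 119, 107, 122 and 106.4 CPM in control and at 108, 104, 113 and 114 CPM with miR-106b (log2 difference −0.05, SE 0.0676). Wwtr1 was at 119.5, 116, 106.1 and 107 CPM in control and at 108, 122, 121 and 119 CPM with miR-106b (0.07, SE 0.0666). In both genes the groups overlapped. The standard errors of the same genes in polyA RNA were 0.130 and 0.131.

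The genes that separated in polyA RNA did not separate here. Ctgf was at 79.4, 71.2, 78.5 and 71.8 CPM in Ago2-IP control and at 72.5, 72.7, 69.6 and 73.3 CPM with miR-106b (−0.06, SE 0.0804). Tead4 was at 8.25, 9.49, 7.25 and 9.17 CPM in control and at 5.04, 7.004, 6.12 and 10.8 CPM with miR-106b (−0.22, SE 0.253), on 13 to 42 counts a library. Its difference lay between −0.49 and −0.095 with each library left out. Lats2 was at 94.5, 83.5, 94.6 and 86.7 CPM in control and at 89.1, 91.9, 104 and 84.1 CPM with miR-106b (0.04, SE 0.0747). All 3 overlapped between the groups.

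In the Ago2-IP, Tead2 was at 15.4, 14.0, 21.2 and 24.9 CPM in control and at 21.3, 26.8, 23.2 and 18.6 CPM with miR-106b (0.24, SE 0.162). Its difference lay between 0.12 and 0.41 with each library left out. Amotl2 was at 152, 167, 186 and 233 CPM in control and at 198, 253, 178 and 161 CPM with miR-106b (0.10, SE 0.194). In both, control replicate 4 was the highest of its group, replicate 2 the highest and replicate 4 the lowest of the miR-106b group. Gm10800, a satellite-like transcript, was at 1522, 225, 1647 and 11168 CPM in the Ago2-IP control libraries and at 10644, 15036, 7705 and 1482 CPM with miR-106b. For it too, control replicate 4 and miR-106b replicate 2 were the highest of their groups and miR-106b replicate 4 the lowest. Other ranks differed: the lowest control library was replicate 2 for Gm10800 and Tead2 but replicate 1 for Amotl2. In the miR-106b group replicate 1 was above replicate 3 for Gm10800 and Amotl2 but below it for Tead2. With the log2 CPM of Gm10800 as a covariate, chosen after the data were seen, the differences were −0.02 for Tead2 and −0.12 for Amotl2. Neither passed edgeR's test with or without the covariate, and the cause of these ranks was not tested. Cyr61 and Tead3 lay between 106.3 and 125 CPM and between 63.4 and 78.3 CPM in the 8 Ago2-IP libraries.

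**Figure D2:**
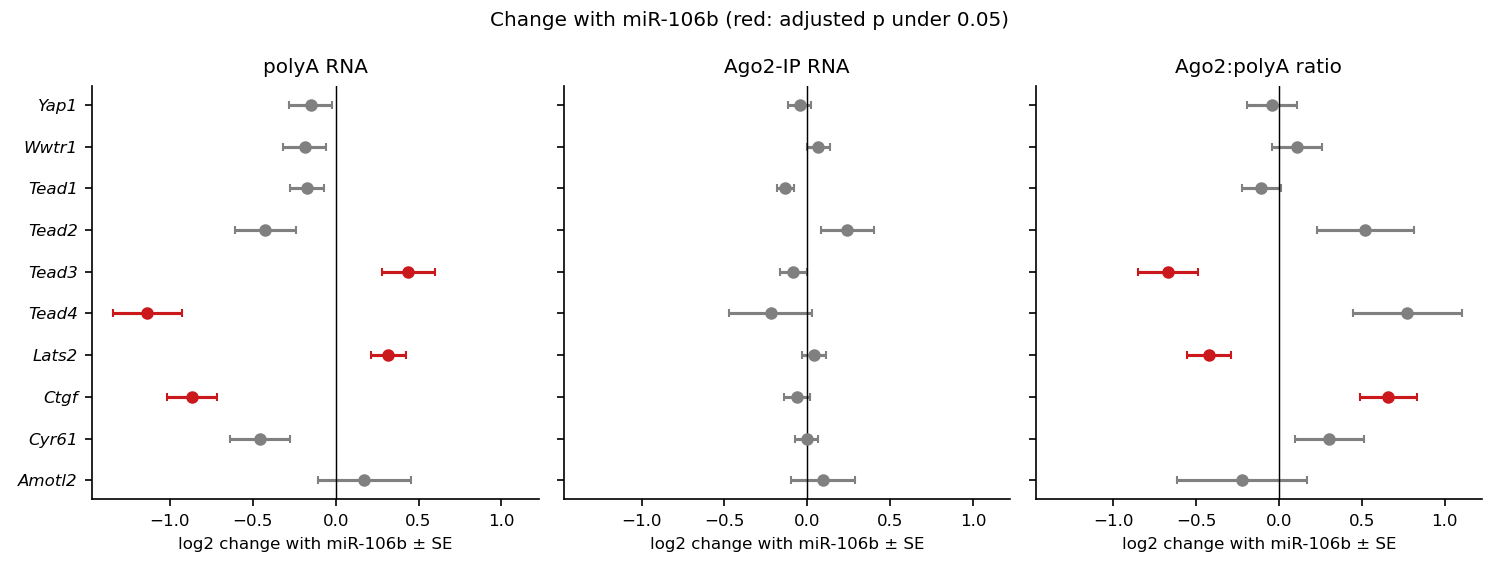
Log2 difference between miR-106b and control (x axis, with SE as bars) for the 10 genes (y axis) in polyA RNA, in Ago2-IP RNA and in the Ago2:polyA ratio, with adjusted p under 0.05 in red. The Ago2-IP values all lie between −0.22 and 0.24, while the polyA values run from −1.14 to 0.44 and the ratio values from −0.67 to 0.77.

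The third comparison is the change of the Ago2:polyA ratio with miR-106b, which the study used as a measure of loading of mRNAs into the silencing complex. It uses the same libraries as the first 2 comparisons, so it is not a separate observation. Fitted as an interaction over all 16 libraries, it passed the test for 3 of the 10 genes, against 27.3% of all genes (7.62% higher and 19.7% lower). Ctgf had a higher ratio with miR-106b, by 0.66 in log2 (SE 0.171, adjusted p = 0.00536). Tead3 had a lower one by −0.67 (SE 0.182, adjusted p = 0.00751), and Lats2 by −0.42 (SE 0.132, adjusted p = 0.0188). In each of the 3 the polyA level differed between the transfections and the Ago2-IP level did not pass its test.

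The genes with a seed match are set beside a median gene at −0.07. Wwtr1 stood at 0.11 (SE 0.150), Yap1 at −0.04 (SE 0.152) and Tead1 at −0.11 (SE 0.118), none of them past the test. Without polyA miR-106b replicate 1 Wwtr1 stood at 0.25 (SE 0.116, adjusted p = 0.102), Yap1 at 0.10 and Tead1 at −0.15. Yap1 and Tead1 turned to 0.13 and 0.06 when libraries were scaled to their totals alone, a setting that moved the median of all genes to 0.10 and the calls of all genes from 1135 higher and 2937 lower to 1991 higher and 2311 lower. Tead4 and Tead2 had ratios of 0.77 (SE 0.329, adjusted p = 0.0836) and 0.52 (SE 0.293, adjusted p = 0.205), Cyr61 of 0.30 (SE 0.208) and Amotl2 of −0.22 (SE 0.392), which turned to 0.12 without polyA miR-106b replicate 1. The ratio of Tead4 was between 0.50 (without Ago2-IP miR-106b replicate 4) and 1.03 (without polyA miR-106b replicate 3, adjusted p = 0.0125) with each library left out. Over all 13222 genes with a 3′UTR, the median ratio change was −0.03 for the 2941 with a site and −0.12 for the 10281 without. In polyA RNA the medians were −0.11 and −0.03.

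Of the 3 calls, that of Lats2 was the least stable under the alternatives tried. It was −0.25 (adjusted p = 0.134) on library totals, −0.28 (adjusted p = 0.111) with TMM within each RNA kind, −0.28 (adjusted p = 0.339) without a filter on low counts and −0.29 (adjusted p = 0.107) when polyA miR-106b replicate 2 was left out. With replicate 1 of that group left out instead, 5 genes passed, since Tead2 (0.76, adjusted p = 0.00919) and Cyr61 (0.57, adjusted p = 0.000378) joined Ctgf, Tead3 and Lats2, and 4621 of all 14853 genes tested passed.

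The design also allows the 2 RNA kinds to be compared within a transfection. Under control transfection, 9 of the 10 genes differed between Ago2-IP and polyA RNA, where 73.3% of all genes did (35.4% higher and 37.9% lower in Ago2-IP). Relative to a median gene at −0.06, Tead2 was lower in Ago2-IP by −2.69 (SE 0.126), to 0.155 of its polyA level. Cyr61 (−1.89), Ctgf (−1.62), Tead4 (−1.37) and Amotl2 (−1.13) were lower as well, followed by Wwtr1 (−0.48) and Yap1 (−0.23). Lats2 (0.57, SE 0.0729, adjusted p = 2.25e-07) and Tead1 (0.42, SE 0.0657, adjusted p = 4.88e-06) were higher in Ago2-IP. Tead3 stood at 0.20 (adjusted p = 0.061). It passed with DESeq2 size factors (adjusted p = 0.0446), with the likelihood ratio test (0.0107) and without polyA control replicate 4 (0.29, adjusted p = 0.00144). In 7 of the 8 fits with 1 library left out Tead3 did not pass edgeR's test (down to 0.11, adjusted p up to 0.308). Yap1 missed the threshold with all 16 libraries in 1 fit (−0.20, adjusted p = 0.104).

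Scaling to library totals, which put the median of all genes at −0.35 with 4284 higher and 7113 lower in place of 5275 and 5651, took Tead1 to 0.13 (adjusted p = 0.0781) and turned Tead3 to −0.09. With TMM within each RNA kind Tead1 was at 0.13 as well (adjusted p = 0.0811 in edgeR's test). Under miR-106b transfection 6 of the 10 genes passed, against a background of 38.5% (18.6% higher and 19.8% lower). Tead2 (−2.14), Cyr61 (−1.56), Amotl2 (−1.33), Ctgf (−0.93) and Tead3 (−0.45) were lower in Ago2-IP and Tead1 (0.34) higher. With each library left out the number passing was 4 to 7, the 4 being without polyA miR-106b replicate 4. Tead3 lost its call in 4 of these 8 fits (adjusted p up to 0.0802), Tead1 in 1 (0.0689, with Ago2-IP miR-106b replicate 3 omitted) and Amotl2 in 1 (0.0516, with polyA miR-106b replicate 4 omitted). On library totals the median of all genes moved there from −0.04 to −0.19, the calls from 2776 higher and 2953 lower to 2070 and 4014, and Tead1 to 0.19 (adjusted p = 0.152), while Wwtr1 went from −0.34 (adjusted p = 0.0562) to −0.49 (adjusted p = 0.00763) and Yap1 from −0.24 (adjusted p = 0.170) to −0.38 (adjusted p = 0.0228) and passed. Wwtr1 also passed without a filter (0.0347), with 10 counts in every library (0.0410), with all 16 libraries in 1 fit (0.0116), with TMM within each RNA kind (0.00833, and 0.0271 for Yap1) and without polyA miR-106b replicate 2 (0.0155) or 3 (0.0446). Without replicate 1 Wwtr1 was −0.21 (adjusted p = 0.129), and Yap1 was −0.10 (adjusted p = 0.453). Tead1 lost its call in edgeR's test without a filter (adjusted p = 0.0987) and with TMM within each RNA kind (0.161). Cardiac muscle genes were higher in Ago2-IP than in polyA RNA in both transfections, 23 of 24 passing in each, and their part in these differences was not tested. RNA kind also goes with a different harvest of the cells, Trizol on the plate or trypsin and lysis, and the 2 cannot be told apart.

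Levels of different genes can be set beside each other only per length, here as CPM per kb of exon (GENCODE M21). In polyA control RNA Cyr61 led with 263 ± 18.5 (SD, n = 4), followed by Ctgf with 97.8 ± 7.45, Amotl2 with 77.8 ± 3.48 and Wwtr1 with 39.6 ± 1.54. Below them came Tead2 (31.2 ± 2.70), Yap1 (17.4 ± 1.18), Tead1 (16.2 ± 1.13), Tead3 (11.98 ± 1.99), Lats2 (10.5 ± 0.438) and Tead4 (7.46 ± 0.811). The counts of Lats2 may include reads outside the M21 gene whose exon length was used, which limits its place. The neighbours Yap1 and Tead1, Tead1 and Tead3, and Tead3 and Lats2 overlapped in their libraries, and the others did not. Thus the 3 target genes were the highest of the 10, and on this scale Wwtr1 was above Yap1 in all 4 groups.

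With miR-106b, polyA Cyr61 was at 192 ± 63.2 CPM per kb and Amotl2 (87.7 ± 42.8) came before Ctgf (53.4 ± 12.8), with the ranges of that pair overlapping. Without replicate 1 these were 160.3 ± 8.16, 69.8 ± 28.6 and 47.5 ± 6.08 (SD, n = 3), and that pair still overlapped. In Ago2-IP control RNA the order from the top was Cyr61 (58.6 ± 3.57), Amotl2 (29.3 ± 5.59), Ctgf (26.3 ± 1.502) and Wwtr1 (23.5 ± 1.36), where Amotl2 overlapped Ctgf and Ctgf overlapped Wwtr1. Tead1 (17.8 ± 0.962) came next, and Tead2 (3.94 ± 1.07) and Tead4 (2.37 ± 0.280) were the lowest. The Ago2-IP order with miR-106b was the same, gene by gene.

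The makeup of the TEAD family differed by RNA kind. Of the summed CPM per kb of the 4 genes, Tead2 held 46.6% ± 2.73 (SD, n = 4) in polyA control, Tead1 24.3% ± 2.17, Tead3 18.0% ± 3.10 and Tead4 11.2% ± 1.14. This order depends on the scaling by the length of all annotated exons, 13570 bases for Tead1 and 4788 for Tead2. In CPM without it, Tead1 (219) was above Tead2 (149) in polyA control. In polyA miR-106b the shares were 39.8% ± 7.39 for Tead2, 28.4% ± 4.29 for Tead3, 25.7% ± 4.97 for Tead1 and 6.16% ± 2.66 for Tead4. Without replicate 1 of that group they were 36.6% ± 4.64, 28.6% ± 5.23, 27.8% ± 3.26 and 7.04% ± 2.42 (SD, n = 3). In Ago2-IP RNA Tead1 led with 50.3% ± 1.65 in control and 48.4% ± 1.21 with miR-106b, and Tead2 held 11.1% ± 2.93 and 13.9% ± 1.70. The Tead3 share did not overlap between polyA control (15.4% to 22.0%) and polyA miR-106b (22.8% to 33.1%), and the Tead4 share did not either (9.49% to 11.98% against 3.50% to 9.40%). As shares of 1 sum, these 4 values move together and are not separate results.

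**Figure D3:**
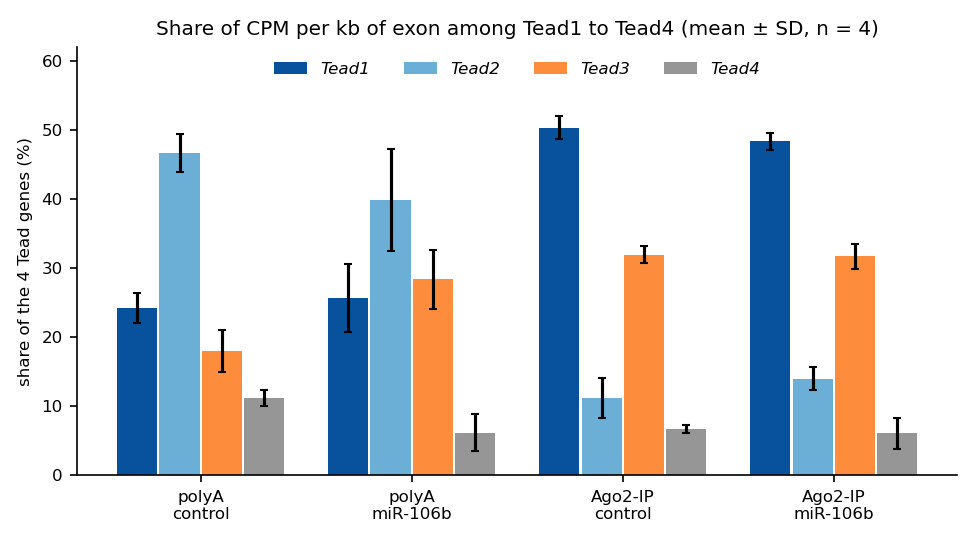
Share of each TEAD gene in the summed CPM per kb of the 4 genes (y axis, percent, mean ± SD, n = 4) in the 4 groups (x axis). Tead2 has the tallest bar in both polyA groups (46.6% and 39.8%) and Tead1 in both Ago2-IP groups (50.3% and 48.4%).

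Other genes of the pathway were read from 3 lists. Of 17 Hippo kinases and scaffolds, all tested, 2 were higher and 9 lower in polyA RNA with miR-106b, where 40.5% of all genes passed (19% higher and 21.5% lower), and the median log2 difference was −0.40 beside −0.05 for all genes. The 11 calls became 6 without polyA control replicate 3 and 7 without control replicate 2, the fewest with any 1 library left out. The lower ones included Sav1 (−0.80, adjusted p = 0.00164), the scaffold of the MST kinases, Lats1 (−0.65, adjusted p = 0.00543), the partner kinase of Lats2, Mob1a (−0.59), which activates LATS kinases, and Stk3 (−0.56), which encodes MST2. Taok1 (−0.62) and Wwc1 (−0.61), the gene of KIBRA, were lower too. With each of the 8 libraries left out in turn, Wwc1 lost its call in 5 fits (adjusted p up to 0.136) and Stk3 in 4 (up to 0.0931). Dchs1 (1.06, adjusted p = 0.000682), a giant cadherin, and Nf2 (0.34, adjusted p = 0.0155), the gene of merlin, were higher, although Nf2 missed the threshold without polyA control replicate 3 (adjusted p = 0.0615). So Lats1 and Lats2, which encode related kinases, passed the test in opposite directions in polyA RNA. Lats2 lost its call in 5 of the 8 fits with 1 library left out, and Lats1 in 0. Lats1 was at 90.6 ± 8.04 CPM (SD, n = 4) in control and 57.5 ± 13.7 with miR-106b.

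Of 11 partners of YAP and TAZ, 9 were tested and 4 passed, with the same background. Vgll4 (0.58, adjusted p = 0.0106), a TEAD cofactor that competes with YAP, was higher. Vgll3 (−0.79, adjusted p = 0.00116), another TEAD cofactor, the phosphatase gene Ptpn14 (−0.60, adjusted p = 0.00203), and Amot (−0.44, adjusted p = 0.0117), the founding motin, were lower. The median over the 9 was −0.29. Hence 1 vestigial-like cofactor rose and another fell, and Amot fell while its relative Amotl2 did not pass the test.

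Of 18 further target genes, all tested, 4 were higher and 9 lower, beside the 19% and 21.5% of all genes, with a median of −0.54. Axl, a receptor tyrosine kinase, went from 1081 ± 78.7 CPM (SD, n = 4) in control to 499.5 ± 148 with miR-106b (−1.11, adjusted p = 0.000795), and Myof, the gene of myoferlin, from 422 ± 34.5 to 194 ± 55.4 (−1.12, adjusted p = 0.000682). Crim1 (−0.82), Dock5 (−0.80), Nuak2 (−0.80), F3 (−0.75), which encodes tissue factor, and Ptpn14, which is on this list too, were lower as well. Higher were Igfbp3 (1.05, adjusted p = 0.00162), Ankrd1 (0.53, adjusted p = 0.0200) and Ccdc80 (0.46, adjusted p = 0.0206), of which Ankrd1 lost its call in 4 of the 8 fits with 1 library left out (up to 0.0651) and Ccdc80 in 3 (up to 0.0731). Ankrd1 is also expressed in cardiac muscle, and its level was 366 CPM in polyA control libraries, 528 with miR-106b and 833 in the Ago2-IP of control cells.

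Without polyA miR-106b replicate 1 the calls in the 3 lists were 12 of 17, 6 of 9 and 13 of 18, with 6702 of 14853 genes called over all. In Ago2-IP RNA 0 genes of the 3 lists passed. The levels in Ago2-IP control libraries of those named above were 50.1 CPM for Myof, 314 for Axl, 21.0 for Sav1 and 24.8 for Lats1, and 91.3 for Dchs1, 195 for Nf2, 41.0 for Vgll4 and 36.3 for Igfbp3. The polyA control libraries averaged 422, 1081, 89.6 and 90.6 CPM for the first 4 of these genes and 25.6, 139, 38.1 and 9.39 CPM for the others. These polyA control libraries also enter the comparison with miR-106b, so the values are set side by side with no test, and the part of the cardiac transcripts in them was not tested.

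**Figure D4:**
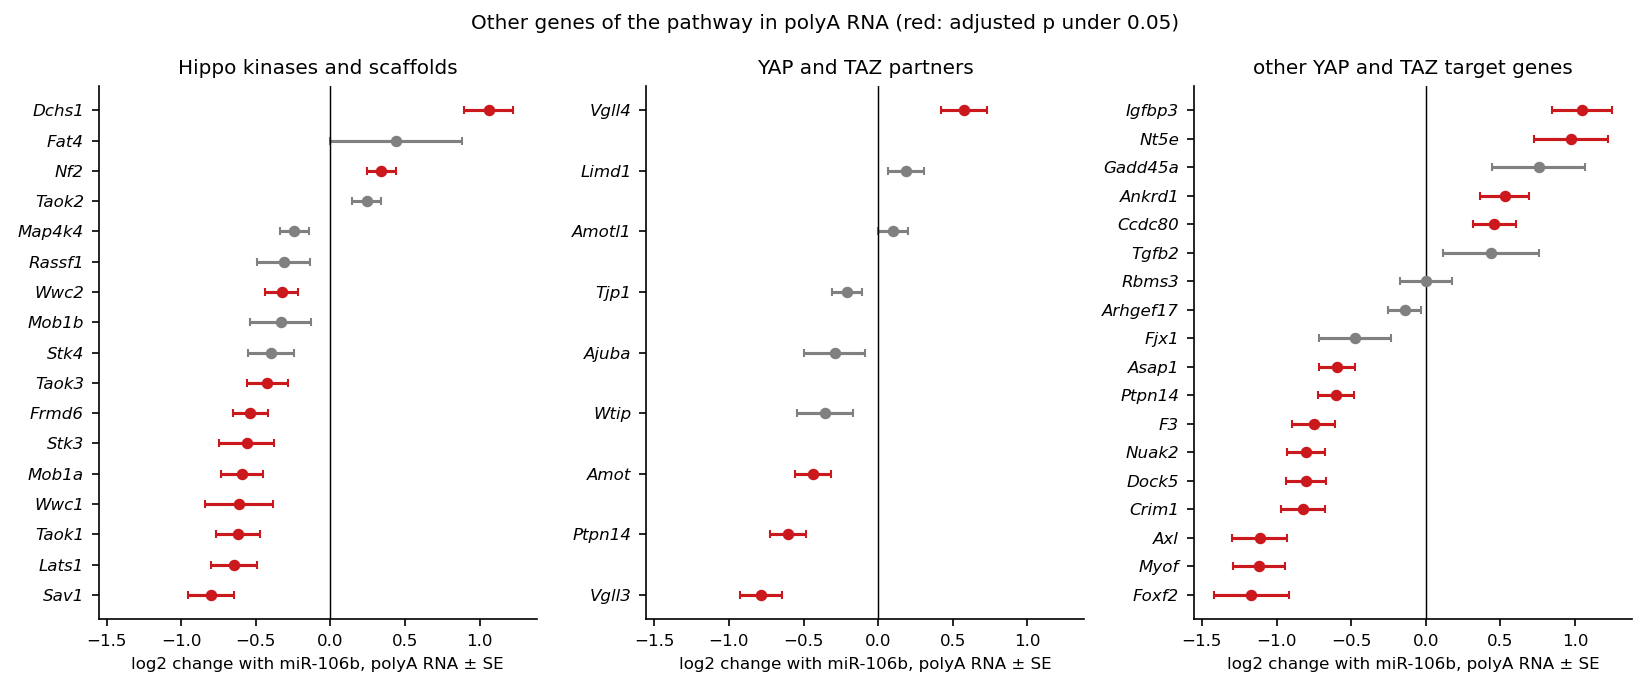
Log2 difference between miR-106b and control in polyA RNA (x axis, with SE as bars) for the tested genes of 3 lists (y axis, 1 panel per list, sorted by value), with adjusted p under 0.05 in red. Of the kinases and scaffolds 9 lie significantly below 0 and 2 above, of the partners 3 and 1, and of the further targets 9 and 4.

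The profiles over the 16 libraries were compared by the root mean square distance between centred log2 CPM, over 9979 genes. Within the group, Yap1 and Wwtr1 were the closest pair (0.137), followed by Tead1 and Lats2 (0.208), and Ctgf lay at 0.294 from Cyr61. Tead2 and Lats2 were the farthest apart (1.44). Of all genes, the nearest to Ctgf were the ribosomal protein genes Rpl4 (0.105), Rps4x (0.107) and Rplp0 (0.109), where the median distance of Ctgf to all 9979 genes was 0.708. Those nearest to Yap1 were Eif3f (0.0809), Ranbp10 (0.0812) and Ctnnb1 (0.0838), the gene of beta-catenin, where the median distance of Yap1 to all genes was 0.395. Wwtr1 was nearest to Zfp746, Copb2 and Otub1, and Lats2 to Zmynd11, Klc2 and D8Ertd738e. All genes share the split of these libraries by RNA kind, and the distances carry no test.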

How the data were processed

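The counts deposited by the authors are whole reads per gene and library, with no normalization. Single-end, non-strand-specific libraries were aligned to GRCm38 with TopHat2 (version 2.0.10 per the labels) and counted with HTSeq by the authors. Reads of a gene and of an antisense partner cannot be told apart. Genes with at least 1 CPM in at least 3 replicates of any group were tested in R 4.3.3 with edgeR 4.0.16 (TMM, robust quasi-likelihood F test, two-sided, Benjamini-Hochberg over all 14897 genes, threshold 0.05). Each pairwise comparison used its 8 libraries, and the ratio all 16. The scripts were tested on simulated data. Named were all 10 members and, per list and direction, at most 6 genes that passed the threshold and averaged 5 CPM or more in polyA RNA. For 1 gene of the partner list, results are not reported here and it enters no count of that list. The members and lists were chosen with earlier results of these data known. The deviations of like-numbered libraries had correlations between −0.386 and 0.217, which gave no clear sign of pairing. Unlike-numbered libraries were not compared, so whether the numbers pair cultures was not settled. Alternatives were DESeq2 1.42.0 (size factors or Wald test), library totals, TMM within RNA kind, no filter, 10 counts in every library, a likelihood ratio test, a replicate block, all 16 libraries, leaving out each library and, added after seeing the data, a Gm10800 covariate. Figures were drawn with matplotlib 3.10.9. Counting limits cover counting error only.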

Additional observations from a re-analysis of the deposited data

Results flagged for a closer look

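Cyr61 in polyA miR-106b replicate 1, at 577 CPM, lay far from the other 3 libraries of its group (305 to 334 CPM) by Dixon's criterion. It was the only one of 40 groups of 4 to do so over the 10 genes, and chance flags about 1 in 20 groups. For 3 genes the change with miR-106b differed between Ago2-IP and polyA RNA by the interaction test: the Ago2-IP change minus the polyA change was −0.67 for Tead3, −0.42 for Lats2 and 0.66 for Ctgf on the log2 scale.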

How the results depend on the processing

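The number of the 10 genes passing in polyA RNA was 4 to 6 under the other settings and ranged from 2 to 7 with each library left out. For the ratio it was 5 without a filter, 6 with the likelihood ratio test and 2 to 5 with each library left out. The replicate block, for which the correlations of like-numbered libraries gave no clear ground, gave 4 in polyA RNA. Lats2 was then at an adjusted p of 0.0597 and Cyr61 at 0.0442 in edgeR's test. The block gave 3 for the ratio, 0 in Ago2-IP, and 9 and 5 for the 2 RNA kinds in control and miR-106b. In polyA RNA Lats2 also missed the threshold without a filter (adjusted p = 0.0837), and Cyr61 passed on library totals (0.0483), without a filter (0.0103), with 10 counts in every library (0.0385) and with the likelihood ratio test (0.000425), as did Tead2 without a filter (0.0202) and with that test (0.00596). Tead4 passed for the ratio on library totals (0.0406), without a filter (0.0247), with TMM within RNA kind (0.0378) and with the likelihood ratio test (0.0357), and Tead2 and Cyr61 without a filter (0.00431 and 0.0188) and with that test (0.0268 and 0.0105). Signs turned only for differences that did not pass. In Ago2-IP these were Tead2 (−0.021) and Amotl2 (−0.12) with the Gm10800 covariate, and Cyr61 with it (0.0099) or with 10 counts in every library (0.0085). For the ratio, Yap1 was at 0.0074 with DESeq2 size factors, 0.13 on library totals, 0.11 without a filter, 0.0018 with 10 counts in every library, 0.0067 with DESeq2's Wald test, 0.036 with the likelihood ratio test and 0.10 with TMM within RNA kind, and Tead1 at 0.062, 0.041 and 0.040 on library totals, without a filter and with TMM within RNA kind. Between RNA kinds in control, Tead3 was at −0.093 on library totals and −0.092 with TMM within RNA kind. With each library left out the ranges that crossed 0 were −0.091 to 0.36 for Amotl2 in polyA RNA, −0.024 to 0.079 for Lats2, −0.044 to 0.041 for Cyr61 and −0.047 to 0.22 for Amotl2 in Ago2-IP, and −0.12 to 0.10 for Yap1, −0.15 to 0.017 for Tead1 and −0.40 to 0.12 for Amotl2 in the ratio. Over all genes, Ago2-IP calls went from 0 to 20 without a filter, 1 with 10 counts in every library, 2 with DESeq2's Wald test, 18 with the likelihood ratio test and 1 with the replicate block, and to 9, 4 and 39 without control replicate 4, miR-106b replicate 1 and miR-106b replicate 4. The causes were not tested. Depth limits Tead4 most, with 13 counts in its lowest library.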
